A study of Homo sapiens with 12 samples.

Results

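The miR-29 family was followed in small RNA libraries from AGS and HGC-27, both established human gastric cancer cell lines. All 7 mature names of the family were taken by name from the count table, which lists 1906 annotated mature microRNA names. The names are hsa-miR-29a-3p, hsa-miR-29a-5p, hsa-miR-29b-3p, hsa-miR-29b-1-5p, hsa-miR-29b-2-5p, hsa-miR-29c-3p and hsa-miR-29c-5p, and no measured value entered the choice. All 7 were also among the 608 microRNAs that passed the filter on low counts. Each line had been given 5 µM SAHA or its solvent DMSO for 24 h, which makes 4 groups of 3 libraries: AGS with SAHA, AGS with DMSO, HGC-27 with SAHA and HGC-27 with DMSO. SAHA (vorinostat) blocks histone deacetylases, and the study asked which microRNAs change under it. All 4 groups grew in RPMI medium with fetal bovine serum, and the labels name no genetic change. Nothing in the labels says whether replicates 1 to 3 of a group were grown apart, so p-values measure only the spread between these libraries, which may be technical.

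A microRNA hairpin is trimmed by Drosha and Dicer into a duplex of a 3p and a 5p strand, of which the guide strand is kept by an Argonaute protein and the passenger strand is mostly discarded. The 3p strands of miR-29 are the guides. Their targets include collagens and other matrix genes, the survival gene MCL1 and the DNA methyltransferases DNMT3A and DNMT3B. In B cell lymphoma, MYC has been reported to repress miR-29 together with the histone deacetylase HDAC3 and the methyltransferase EZH2.

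The 7 mature sequences are shown because their likeness decides which strands can be told apart by counting. Capitals mark the seed, bases 2 to 8 from the 5′ end, through which a microRNA pairs with its targets. The sequences are RefSeq's for GRCh38.p14, where all 7 names and all 4 hairpins were found.
hsa-miR-29a-3p: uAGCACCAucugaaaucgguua
hsa-miR-29b-3p: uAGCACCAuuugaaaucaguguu
hsa-miR-29c-3p: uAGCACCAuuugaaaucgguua
hsa-miR-29a-5p: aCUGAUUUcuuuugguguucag
hsa-miR-29b-1-5p: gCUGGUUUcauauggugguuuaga
hsa-miR-29b-2-5p: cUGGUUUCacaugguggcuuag
hsa-miR-29c-5p: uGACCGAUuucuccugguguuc
The guides share the seed AGCACCA. The 4 passenger strands have 4 different seeds. With positions counted from 1 at the 5′ end of miR-29a-3p, miR-29c-3p differs from it by C10U alone. miR-29b-3p differs from miR-29a-3p over the same 22 positions by C10U, G18A, U21G and A22U, and it ends in AGUGUU, letters described in human cells as a nuclear import signal of miR-29b.

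The 4 hairpins lie in 2 pairs, both on the minus strand. MIR29A (chr7:130876747-130876810) and MIR29B1 (chr7:130877459-130877539) are 648 bases apart. MIR29B1 lies within an exon of the long noncoding RNA LINC-PINT, and 2 bases of MIR29A overlap that exon, in the GENCODE 29 annotation. MIR29C (chr1:207801852-207801939) and MIR29B2 (chr1:207802443-207802523) are 503 bases apart in 1 exon of the noncoding host gene MIR29B2CHG. The b hairpins are printed because they yield the same guide but different passengers. Capitals mark the mature strands, the 5p strand first.
hsa-mir-29b-1: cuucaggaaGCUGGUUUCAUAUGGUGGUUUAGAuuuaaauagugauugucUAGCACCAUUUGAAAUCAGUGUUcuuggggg
hsa-mir-29b-2: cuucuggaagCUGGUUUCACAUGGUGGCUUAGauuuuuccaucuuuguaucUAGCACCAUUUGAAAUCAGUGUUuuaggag
The table listed hsa-miR-29b-3p for both hairpins with counts that differed by at most 6 in any library, so those reads cannot be assigned to a chromosome. The passenger strands can: miR-29a-5p and miR-29b-1-5p come from chromosome 7, and miR-29b-2-5p and miR-29c-5p from chromosome 1.

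Library totals ran from 2665109 to 6525388 counts. The library HGC-27 SAHA replicate 2 stood farthest from its group, with a root mean square deviation from the group mean of 0.795 log2 units over the 608 microRNAs, against 0.326 to 0.572 in the other 11 libraries. Values without it are given where they bear on a call. All 10 gastric and gut epithelium markers were measured, with summed levels, as CPM without TMM scaling in this and the other marker lists, of 8195 to 8881 CPM in AGS SAHA libraries, 4651 to 9096 CPM in AGS DMSO libraries, 8517 to 9053 CPM in HGC-27 SAHA libraries and 3182 to 4569 CPM in HGC-27 DMSO libraries. The 7 fibroblast and smooth muscle markers, 6 of them tested, summed to 1915 to 2604 CPM in AGS SAHA, 542 to 3449 CPM in AGS DMSO, 247 to 1891 CPM in HGC-27 SAHA and 91.6 to 2286 CPM in HGC-27 DMSO libraries. The 7 blood markers, 5 of which passed the filter and were tested, summed to at most 511 CPM in any library. Of the 7, 1 that was not tested was listed in no AGS DMSO library. Both endothelial markers were tested and summed to 2797 to 3947 CPM in AGS SAHA, 1176 to 2130 CPM in AGS DMSO, 1982 to 2924 CPM in HGC-27 SAHA and 885 to 1269 CPM in HGC-27 DMSO libraries. The part of any marker list in the miR-29 values was not tested. In such bulk samples, fewer cells of a type and less RNA per cell cannot be told apart.

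In both lines miR-29 was almost entirely miR-29a-3p, and SAHA left the guides without a called change. The 2 passenger strands from chromosome 7 had the lowest log2 fold changes under SAHA in both lines, and 1 of these values, miR-29b-1-5p in HGC-27, passed the test across all microRNAs. AGS held less of the family than HGC-27 under either treatment. The levels of miR-29 strands that follow are TMM-scaled CPM, without length correction, since the strands are all 22 to 24 bases long. Differences in ligation between sequences were not tested, so the order of levels between strands holds for these libraries only.

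**Figure D1:**
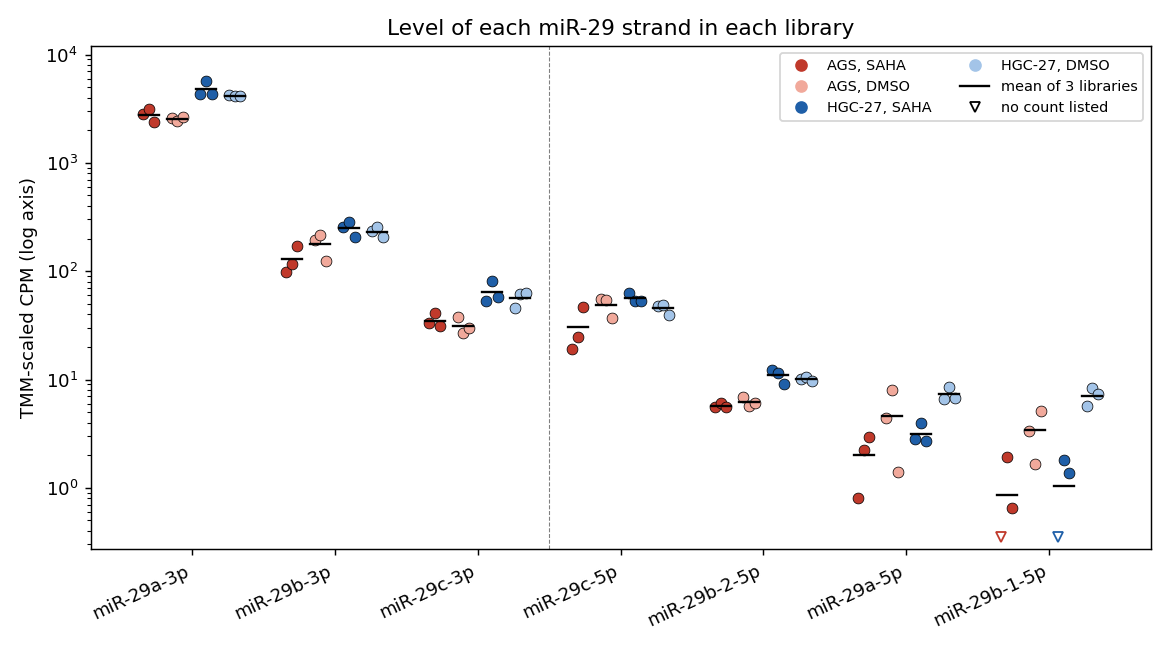
TMM-scaled CPM (log axis) of each miR-29 strand in each of the 12 libraries, guides left of the dashed line and passengers right of it, with the mean of 3 libraries as a bar. miR-29a-3p lies above all other members in each library, and open triangles mark the AGS SAHA and the HGC-27 SAHA library that listed no miR-29b-1-5p.

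Averaged over the 12 libraries, miR-29a-3p stood at 3567 CPM, rank 41 of 608. miR-29b-3p followed at 197 CPM (rank 173), miR-29c-3p at 46.9 CPM (rank 269) and miR-29c-5p at 45.3 CPM (rank 277). The other passengers were scarce: miR-29b-2-5p had 8.24 CPM, miR-29a-5p 4.27 CPM and miR-29b-1-5p 3.09 CPM, with ranks 427, 508 and 547 in that order. They rest on 349, 189 and 141 counts over all libraries, so single reads weigh on each of their values.

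miR-29a-3p, the main guide, had 2851, 3109 and 2386 CPM in AGS SAHA libraries, against 2595, 2436 and 2623 CPM in AGS DMSO libraries. In HGC-27 it had 4303, 5658 and 4336 CPM with SAHA, against 4199, 4184 and 4120 CPM with DMSO. All HGC-27 libraries lay above all AGS libraries. Within HGC-27 the SAHA libraries lay above the DMSO libraries on this scale, but replicate 2 alone stood far above, and the groups overlapped in AGS. In the authors' normalized table the HGC-27 groups overlapped, at 3357, 4676 and 3529 with SAHA, against 3618, 3044 and 3222 with DMSO. The log2 fold change of SAHA over DMSO was 0.13 ± 0.12 in AGS (SE; adjusted p = 0.487, edgeR's quasi-likelihood test with Benjamini-Hochberg adjustment over 608 microRNAs) and 0.19 ± 0.12 in HGC-27 (adjusted p = 0.233). The 95% intervals, -0.14 to 0.39 in AGS and -0.08 to 0.46 in HGC-27, hold no fold above 1.38 in either direction. Without HGC-27 SAHA replicate 2 the HGC-27 value was 0.11 (adjusted p = 0.548). That library also stood apart in microRNAs known to be abundant in neurons, singled out after their values were seen. It held 2657 CPM of miR-9-5p, against 72.8 and 236 CPM in HGC-27 SAHA replicates 1 and 3, and 180 CPM of miR-124-3p, against 1.25 and 8.15 CPM. Its miR-128-3p level was 5315 CPM, against 2330 and 2150 CPM in those replicates. Picked in the same way, miR-451a of the blood markers stood there at 397 CPM, against 44.0 and 75.2 CPM. miR-143-3p of the fibroblast and smooth muscle markers stood at 1439 CPM, against 125 and 375 CPM, while miR-1-3p had 47.3 CPM, against 32.2 and 142 CPM. The library thus stood apart in more than neuronal microRNAs, and it was not the only one to do so. Picked likewise, HGC-27 DMSO replicate 1 held 1035 CPM of miR-1-3p, against 6.78 and 4.82 CPM in HGC-27 DMSO replicates 2 and 3. Its miR-143-3p level was 1010 CPM, against 80.8 and 71.7 CPM. The part of all these microRNAs in the miR-29a-3p value was not tested.

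miR-29b-3p, the guide made from both pairs of hairpins, had 97.6, 118 and 172 CPM in AGS SAHA libraries, against 193, 217 and 125 CPM in AGS DMSO libraries. SAHA replicate 3 lay within the DMSO range and DMSO replicate 3 within the SAHA range. In HGC-27 the levels were 255, 287 and 207 CPM with SAHA, against 235, 253 and 208 CPM with DMSO, which overlap. The log2 fold change was -0.47 ± 0.24 in AGS (adjusted p = 0.188) and 0.10 ± 0.24 in HGC-27 (adjusted p = 0.769, both by edgeR). Without AGS SAHA replicate 3 the AGS value was -0.75 and passed the test, at an adjusted p of 0.0392.

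miR-29c-3p, the scarcest guide, had 33.3, 40.8 and 30.9 CPM in AGS SAHA libraries, against 37.6, 27.0 and 29.9 CPM in AGS DMSO libraries. HGC-27 held 53.4, 80.7 and 58.0 CPM with SAHA, against 46.1, 61.8 and 62.8 CPM with DMSO. The treatments overlapped in both lines, and every HGC-27 library was above every AGS library. SAHA over DMSO was 0.15 ± 0.21 in AGS (edgeR, adjusted p = 0.644) and 0.17 ± 0.21 in HGC-27 (adjusted p = 0.556) on the log2 scale.

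miR-29b-1-5p, the passenger of the chromosome 7 b hairpin, was not listed in AGS SAHA replicate 1 and had 1.93 and 0.651 CPM in replicates 2 and 3, against 3.34, 1.66 and 5.15 CPM in AGS DMSO libraries. In HGC-27 it was not listed in SAHA replicate 1 and had 1.79 and 1.36 CPM in the others, against 5.64, 8.28 and 7.33 CPM with DMSO. The smallest listed count in the table is 2, so a blank was read as 0 but is no proof of no reads. The HGC-27 groups were far apart, on 11 counts with SAHA and 94 with DMSO, while the AGS groups, on 8 and 28 counts, overlapped. In HGC-27 miR-29b-1-5p fell by 2.71 ± 0.86 on the log2 scale (edgeR, adjusted p = 0.024, 95% interval -4.61 to -0.82). It was the 1 of 7 members called, beside 19.1% of the 608 microRNAs called lower in HGC-27; 1 of 7 is no larger a share than that. The call was lost on leaving out any HGC-27 library other than SAHA replicate 2 (adjusted p between 0.0536 and 0.0833), stayed at 0.0274 without SAHA replicate 2, and was lost in the authors' normalized table (0.0592) and with the replicate number as a block (-2.85, adjusted p = 0.0582). In AGS the log2 fold change was -1.84 ± 0.95 (adjusted p = 0.179).

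miR-29a-5p, the passenger of the neighbouring hairpin, had 0.803, 2.25 and 2.93 CPM in AGS SAHA libraries, against 4.45, 7.99 and 1.40 CPM in AGS DMSO libraries. In HGC-27 it had 2.81, 3.95 and 2.72 CPM with SAHA, against 6.63, 8.54 and 6.75 CPM with DMSO. The HGC-27 groups did not overlap, and in AGS only DMSO replicate 3 fell among the SAHA values. Log2 fold changes were -1.20 ± 0.58 in AGS (edgeR, adjusted p = 0.161) and -1.21 ± 0.53 in HGC-27 (adjusted p = 0.0943), neither past the threshold. It passed without AGS DMSO replicate 3 in AGS (-1.60, adjusted p = 0.0429), and in HGC-27 where the 6 HGC-27 libraries were fitted alone (-1.14, adjusted p = 0.0117).

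The chromosome 1 passengers had log2 fold changes above 0 in HGC-27. miR-29b-2-5p, from the b hairpin of that chromosome, had 5.62, 6.11 and 5.53 CPM in AGS SAHA libraries, against 6.96, 5.66 and 6.08 CPM in AGS DMSO libraries. HGC-27 held 12.2, 11.5 and 9.06 CPM with SAHA, against 10.1, 10.5 and 9.64 CPM with DMSO. Its treatment groups overlapped in both lines, with log2 fold changes of -0.12 ± 0.22 in AGS (edgeR, adjusted p = 0.755) and 0.11 ± 0.21 in HGC-27 (adjusted p = 0.748). The AGS value changed sign to 0.07 with plain library totals.

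miR-29c-5p averaged about the level of its guide over all libraries, and lay above it in each AGS DMSO library. It had 19.3, 24.7 and 46.9 CPM in AGS SAHA libraries, against 55.9, 53.9 and 37.0 CPM in AGS DMSO libraries. In HGC-27 it had 63.1, 53.4 and 53.0 CPM with SAHA, against 47.6, 48.5 and 39.7 CPM with DMSO. The AGS groups overlapped through replicate 3 of each, and the HGC-27 groups did not overlap, with SAHA above. On the log2 scale the change with SAHA was -0.69 ± 0.29 in AGS (edgeR, adjusted p = 0.114) and 0.32 ± 0.29 in HGC-27 (adjusted p = 0.409). It was -1.17 in AGS without SAHA replicate 3 (adjusted p = 0.00471), and 0.39 with the 6 HGC-27 libraries fitted alone (adjusted p = 0.0370).

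**Figure D2:**
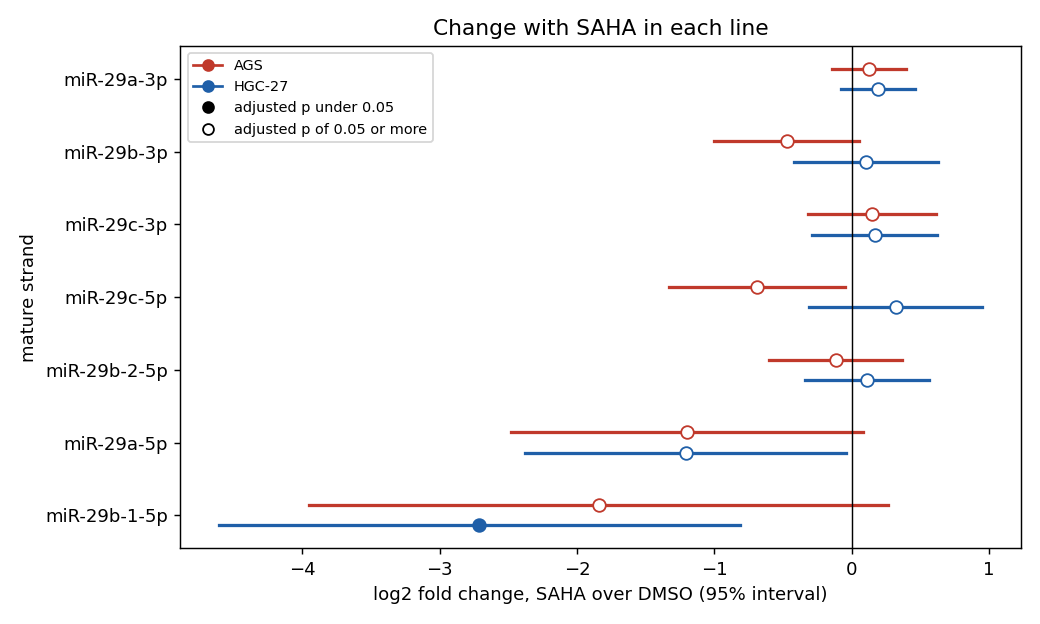
Log2 fold change of SAHA over DMSO (horizontal axis) with its 95% interval for each miR-29 strand, AGS above HGC-27 in each pair of lines, filled where the adjusted p was under 0.05. Only miR-29b-1-5p in HGC-27 is filled, at -2.71, and the intervals of the guides are much narrower than those of the chromosome 7 passengers.

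By edgeR, 0 of 7 members were called in AGS, where 26.5% of all microRNAs were called in either direction. miR-29c-5p alone had an unadjusted p under 0.05 there. DESeq2 also called 0 in AGS (3 with an unadjusted p under 0.05), as did limma on the authors' normalized table (0 under 0.05). With predicted entries included, 1 was called in AGS, miR-29c-5p at -0.90 (adjusted p = 0.0470), and 4 had an unadjusted p under 0.05. The median log2 fold change of the 7 members was -0.47 in AGS and 0.11 in HGC-27, beside 0.08 over all 608 microRNAs in each line. Plain library totals moved the median of all microRNAs to 0.26 in AGS and 0.19 in HGC-27. In HGC-27, 2 members were lower and 2 higher in all SAHA than in all DMSO libraries by TMM-scaled CPM, beside 27.5% and 30.4% of all microRNAs. In the authors' normalized table miR-29a-3p, 1 of the higher, and miR-29a-5p, 1 of the lower, overlapped. In AGS none of the 7 was free of overlap, beside 38.5% of all microRNAs in either direction.

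The difference between the SAHA responses, AGS minus HGC-27, was tested directly. None of the 7 members was called by edgeR, beside 1.81% of all microRNAs, and 1 had an unadjusted p under 0.05. DESeq2 and limma on the authors' normalized table called 0 too, each with 1 member at an unadjusted p under 0.05. miR-29c-5p had the smallest p, with a difference of -1.01 ± 0.41 on the log2 scale (adjusted p = 0.238, 95% interval -1.91 to -0.11). Without AGS SAHA replicate 3 it was -1.51 and was called, at an adjusted p of 0.0244. miR-29b-3p differed by -0.58 ± 0.34 (adjusted p = 0.400). For miR-29a-3p the interval ran from -0.45 to 0.31, which includes differences in either direction.

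The strand ratio of a hairpin compares both strands within 1 library, so it does not depend on how libraries are scaled. It was taken as log2 of the 3p over the 5p count, each with 0.5 added. For both b hairpins the 3p count was that of miR-29b-3p from both chromosomes. Their ratios are therefore not of the strands of 1 hairpin alone, and do not measure strand choice. The miR-29a ratio averaged 10.47 ± 0.95 in AGS SAHA, 9.34 ± 1.22 in AGS DMSO, 10.50 ± 0.08 in HGC-27 SAHA and 9.14 ± 0.20 in HGC-27 DMSO libraries (SD, n = 3). The HGC-27 groups were apart, and the AGS groups overlapped. The HGC-27 ratios rest on 9, 11 and 12 counts of miR-29a-5p with SAHA, against 27, 34 and 35 with DMSO. With so few counts, the small SDs over 3 libraries are no measure of precision. As a share of both strands, miR-29a-5p made up 0.0744% in AGS SAHA, 0.184% in AGS DMSO, 0.0659% in HGC-27 SAHA and 0.175% in HGC-27 DMSO libraries.

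For miR-29b-1 the ratio averaged 7.49 ± 1.57 in AGS SAHA, 5.74 ± 1.17 in AGS DMSO, 8.33 ± 2.03 in HGC-27 SAHA and 5.02 ± 0.29 in HGC-27 DMSO libraries. The 2 libraries with no listed 5p count set its upper end, and their ratios depend on depth through the added 0.5. The chromosome 1 hairpins moved less: miR-29b-2 had 4.41 ± 0.45 in AGS SAHA, 4.77 ± 0.45 in AGS DMSO, 4.50 ± 0.13 in HGC-27 SAHA and 4.51 ± 0.08 in HGC-27 DMSO libraries. For miR-29c, miR-29c-5p averaged 44.9% of both strands in AGS SAHA, 60.6% in AGS DMSO, 47.3% in HGC-27 SAHA and 44.5% in HGC-27 DMSO libraries. Per library its count ran from 57.8% to 200% of the miR-29c-3p count. The mean miR-29c ratio moved with SAHA by 0.92 in AGS, beside 1.13 for miR-29a there, and by -0.16 in HGC-27.

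**Figure D3:**
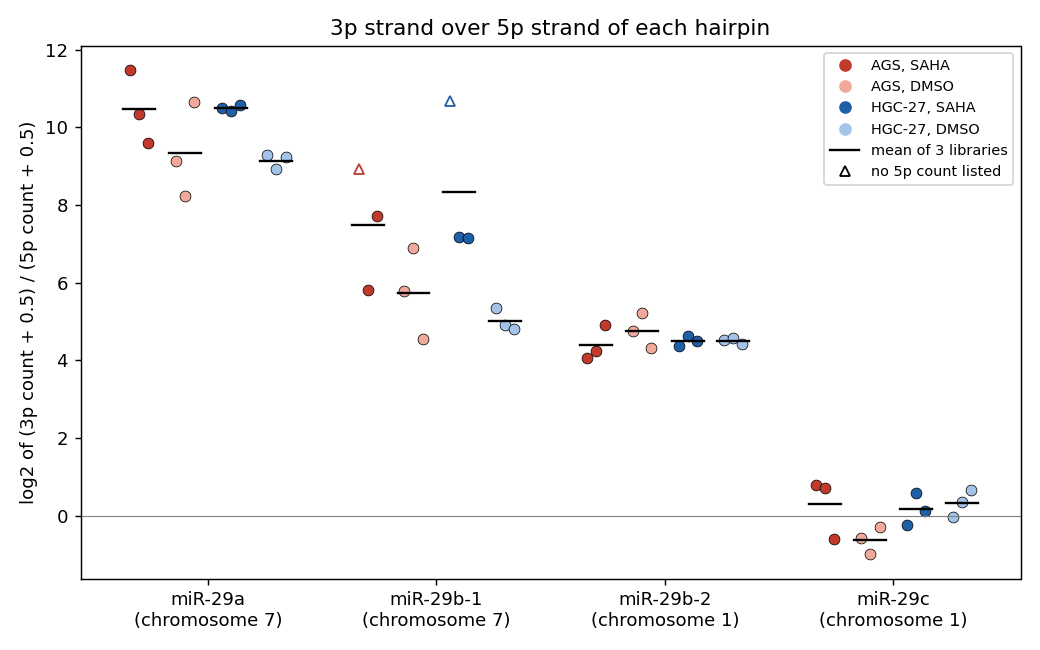
Log2 of the 3p over the 5p count (0.5 added to each) of the 4 miR-29 hairpins in each library, with the mean of 3 libraries as a bar. Both b hairpins have the same 3p count, that of miR-29b-3p from both chromosomes. In HGC-27 the SAHA libraries lie above the DMSO libraries for both chromosome 7 hairpins and overlap them for both chromosome 1 hairpins, and open triangles mark libraries with no listed 5p count.

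Averaged over both lines, the ratio under SAHA minus that under DMSO was 1.24 for miR-29a and 2.53 for miR-29b-1, against -0.19 for miR-29b-2 and 0.38 for miR-29c. An exact two-sided permutation test with labels exchanged within each line gave p = 0.015 for miR-29a, 0.01 for miR-29b-1, 0.335 for miR-29b-2 and 0.29 for miR-29c, where 0.005 is the smallest p it can give. Within 1 line the smallest possible exact p is 0.1, which both chromosome 7 hairpins reached in HGC-27. The same test was run on all 183 hairpins with both strands tested. Adjusted over them, p was 0.0704 for miR-29a and 0.0523 for miR-29b-1, so neither passed, beside 13.1% of hairpins that did. At an unadjusted exact p under 0.05 the share was 31.7% of the 183 hairpins. The 3p over 5p ratio was higher under SAHA in 30 of these and lower in 28, but the 3p strand is not the more abundant one in every hairpin. Taken instead as the log2 fold change of the scarcer minus that of the more abundant strand, the shift was below 0 in 110 of 183 hairpins in HGC-27 and 115 in AGS. It was below -1 in 22 hairpins in HGC-27 and 18 in AGS, with miR-29a and miR-29b-1 among them in both lines. By size of the shift in either direction miR-29b-1 was rank 5 and miR-29a rank 17 of 183, though ratios of scarce strands also scatter most. With a pseudocount of 5 the miR-29b-1 shift was 1.17 (exact p = 0.03).

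Summed by chromosome, a grouping made with these values known, the chromosome 7 passengers had 0.803, 4.18 and 3.58 CPM in AGS SAHA libraries, against 7.79, 9.66 and 6.55 CPM in AGS DMSO libraries. In HGC-27 the sum was 2.81, 5.74 and 4.08 CPM with SAHA, against 12.3, 16.8 and 14.1 CPM with DMSO. The treatments did not overlap in either line, with SAHA lower. The AGS sums rest on only 2, 13 and 11 counts with SAHA, against 28, 29 and 14 with DMSO. Those of HGC-27 rest on 9, 16 and 18 counts with SAHA, against 50, 67 and 73 with DMSO. Of single microRNAs, 27.5% were lower without overlap in HGC-27, and 38.5% were free of overlap in either direction in AGS. The chromosome 1 passengers summed to 24.9, 30.9 and 52.4 CPM in AGS SAHA libraries, against 62.9, 59.6 and 43.1 CPM in AGS DMSO libraries, and to 75.3, 64.9 and 62.1 CPM with SAHA, against 57.7, 59.0 and 49.3 CPM with DMSO in HGC-27. The chromosome 1 sums overlapped in AGS but not in HGC-27, where SAHA was higher, beside 30.4% of single microRNAs higher without overlap there. All these sums are descriptions and were not tested.

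The guides share a seed, so their sum describes the pool that could pair with common targets. It averaged 2946 ± 341 CPM in AGS SAHA, 2761 ± 74.2 CPM in AGS DMSO, 5079 ± 820 CPM in HGC-27 SAHA and 4457 ± 57.8 CPM in HGC-27 DMSO libraries (SD, n = 3). miR-29a-3p made up 94.3% ± 1.9 of it in AGS SAHA, 92.4% ± 1.8 in AGS DMSO, 93.8% ± 0.46 in HGC-27 SAHA and 93.5% ± 0.45 in HGC-27 DMSO libraries. miR-29b-3p took 4.50% ± 1.85 in AGS SAHA, 6.48% ± 1.82 in AGS DMSO, 4.93% ± 0.53 in HGC-27 SAHA and 5.20% ± 0.45 in HGC-27 DMSO libraries. Where the share of miR-29b-3p was low, that of miR-29a-3p was high, since the shares add to the whole.

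Set against miR-29a-3p of the same library, the other 6 members varied to different degrees. The miR-29c-3p count lay between 1.10% and 1.53% of the miR-29a-3p count in all 12 libraries. Its dispersion was 2.18 times what counting alone gives. Dispersion here is the Pearson chi-square, per degree of freedom, of the member's share in the sum of both counts. For miR-29b-2-5p, between 0.196% and 0.283%, the dispersion was 0.39 times that of counting. Counting alone gives its ratio a coefficient of variation of 20.6%, against 8.83% for miR-29c-3p. By contrast miR-29b-3p lay between 3.42% and 8.93%, with a dispersion of 35.1 times, and miR-29c-5p between 0.676% and 2.21%, with 19.1 times. The chromosome 7 passengers, also scarce, reached 0.328% for miR-29a-5p (5.55 times) and 0.198% for miR-29b-1-5p (7.70 times). miR-29b-3p and miR-29c-5p came in the same order over the AGS libraries on this scale, lowest in SAHA replicates 1 and 2 and highest in DMSO replicate 2. miR-29c-3p differs from miR-29a-3p by C10U alone, and whether reads of one were counted as the other was not tested.

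**Figure D4:**
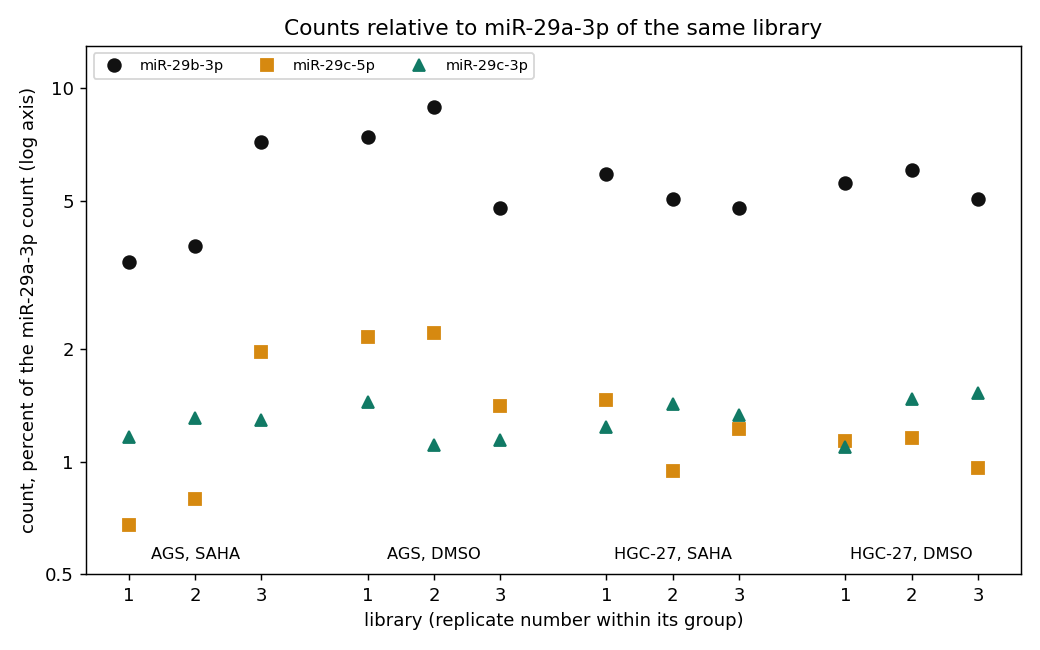
Counts of miR-29b-3p, miR-29c-5p and miR-29c-3p as a percent of the miR-29a-3p count of the same library (log axis), for the 12 libraries by group. miR-29c-3p stays between 1.10% and 1.53%, while miR-29b-3p and miR-29c-5p come in the same order over the AGS libraries.

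Between the lines, AGS held less miR-29 than HGC-27. Under SAHA 5 of 7 members were called lower in AGS by edgeR, beside 19.9% of all microRNAs. The log2 fold change of AGS over HGC-27 was -0.78 ± 0.12 for miR-29a-3p (adjusted p = 0.000416), -0.95 ± 0.24 for miR-29b-3p (0.00811) and -0.87 ± 0.21 for miR-29c-3p (0.00628). It was -0.91 ± 0.21 for miR-29b-2-5p (adjusted p = 0.00522) and -0.90 ± 0.29 for miR-29c-5p (0.0277). Those same 5 did not overlap between the lines under SAHA, beside 24.2% of all microRNAs lower without overlap.

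Under DMSO 3 members were called lower in AGS, beside 20.1% of all microRNAs. The log2 fold change of AGS over HGC-27 was -0.71 ± 0.12 for miR-29a-3p (edgeR, adjusted p = 0.000714), -0.85 ± 0.21 for miR-29c-3p (0.00626) and -0.69 ± 0.21 for miR-29b-2-5p (0.0204). These and miR-29b-1-5p did not overlap between the lines, beside 26.5% of all microRNAs lower without overlap. Under DMSO the guide miR-29b-3p was not called, at -0.38 ± 0.24 (edgeR, adjusted p = 0.227), and it overlapped between the lines. The miR-29c-5p value under DMSO was 0.12 ± 0.29 (adjusted p = 0.784). The median over the 7 members was -0.87 under SAHA, beside 0.07 over all microRNAs, and -0.69 under DMSO, beside 0.03. The miR-29a-3p call held under all alternatives run for both treatments. That of miR-29b-2-5p under DMSO was lost with DESeq2 (adjusted p = 0.0524), with no filter (0.154), and without AGS DMSO replicate 2 (0.0907) or HGC-27 DMSO replicate 2 (0.0602). That of miR-29c-5p under SAHA was lost without AGS SAHA replicate 2 (adjusted p = 0.0618) or HGC-27 SAHA replicate 1 (0.0537), and with only the 6 SAHA libraries fitted (0.0624), and that of miR-29b-2-5p under SAHA was lost with no filter (0.0872). With limma on the authors' normalized table, miR-29a-3p and miR-29b-3p remained called under SAHA, and miR-29a-3p and miR-29c-3p under DMSO.

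**Figure D5:**
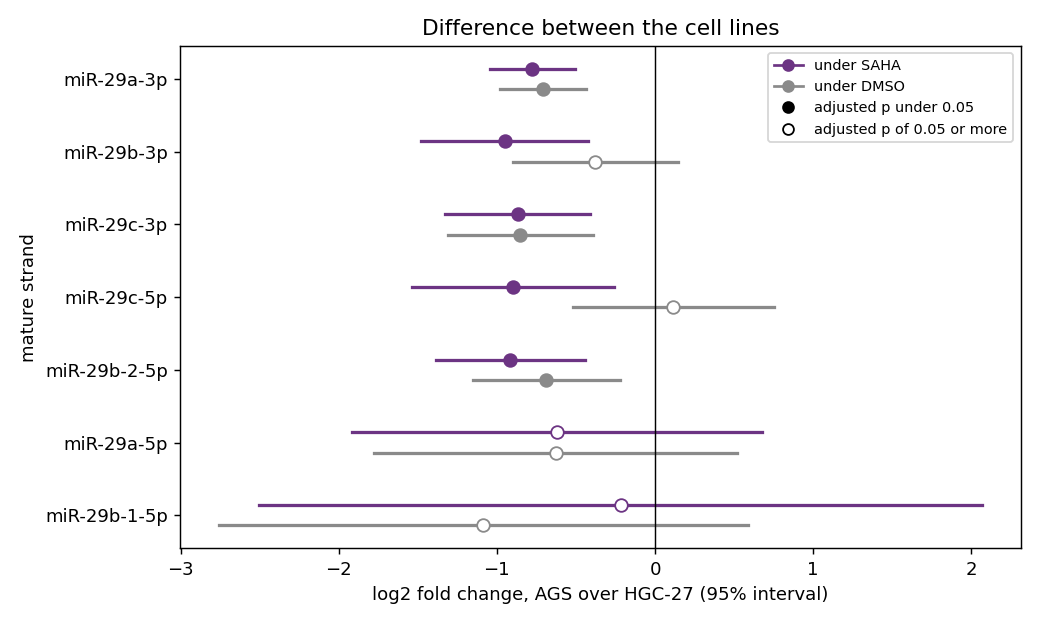
Log2 fold change of AGS over HGC-27 (horizontal axis) with its 95% interval for each miR-29 strand, SAHA above DMSO in each pair of lines, filled where the adjusted p was under 0.05. Every member but miR-29c-5p lies left of 0 under either treatment, and miR-29c-5p does so under SAHA at -0.90 but not under DMSO at 0.12. The interval includes 0 for miR-29a-5p and miR-29b-1-5p under both treatments, and for miR-29b-3p and miR-29c-5p under DMSO.

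Likeness to the guides was measured over the 4 group means as the root mean square difference of centred log2 CPM, among 221 microRNAs outside the family with a mean of at least 100 CPM. For miR-29a-3p the nearest were miR-339-3p (0.04), miR-30d-3p (0.05) and miR-4286 (0.08), beside a median of 0.47 and a distance of 0.05 to miR-29c-3p. For miR-29b-3p they were miR-148b-3p (0.07), miR-107 (0.13) and miR-24-2-5p (0.14), beside 0.21 to miR-29a-3p. For miR-29c-3p they were miR-339-3p (0.05), miR-27a-3p (0.06) and miR-186-5p (0.08). With 4 group means per profile, these distances describe the groups only.

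Other microRNAs reported as repressed by MYC in B cell lymphoma, 19 of 19 tested, were set beside miR-29. In AGS 2 were called by edgeR, both lower, beside 26.5% of all microRNAs called in that line. In HGC-27 3 were higher and 6 lower, beside 21.7% and 19.1% of all microRNAs. Their median log2 fold change was -0.11 in AGS and -0.20 in HGC-27, beside 0.08 over all microRNAs in each line. With plain library totals it was 0.09 in AGS, beside 0.26 over all, and -0.08 in HGC-27, beside 0.19. With those totals 2 were called higher and 2 lower in AGS, and 3 were higher and 3 lower in HGC-27. Without HGC-27 SAHA replicate 2, 3 were higher and 4 lower in HGC-27. The 3 most abundant were not called: let-7g-5p had a log2 fold change of -0.11 in AGS and -0.05 in HGC-27, let-7f-5p 0.04 in AGS and -0.10 in HGC-27, and miR-26a-5p 0.04 in AGS and -0.02 in HGC-27. The let-7 microRNAs are known to repress RAS and HMGA2.

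Of 16 other microRNAs reported to target enzymes of DNA methylation or histone modification, 14 were tested. In AGS 1 was called higher and 2 lower, with a median log2 fold change of -0.13, and in HGC-27 3 were higher and 2 lower, with a median of 0.06. Over all microRNAs 26.5% were called in AGS, 21.7% were higher and 19.1% lower in HGC-27, and the median was 0.08 in each line, so these counts lie near the shares over all. With plain library totals the AGS median was 0.06, beside 0.26 over all microRNAs, with 1 called higher and 1 lower. In HGC-27 3 were then higher and 1 lower. Without HGC-27 SAHA replicate 2 the HGC-27 counts were 2 higher and 1 lower. The most abundant, miR-148a-3p, reported to target DNMT1, stood at 0.34 in AGS and 0.65 in HGC-27 and was not called. Nor was miR-26a-5p, or miR-148b-3p at -0.62 in AGS and -0.10 in HGC-27. Called in both lines in this list were miR-449a, at 5.66 in AGS and 3.26 in HGC-27 on the log2 scale, and miR-34a-5p, at -0.73 in AGS and -0.63 in HGC-27, both singled out after their values were seen. The AGS DMSO libraries held 0.186 ± 0.32 CPM of miR-449a, so the size of its AGS value rests on few counts.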

How the data were processed

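The members and lists were chosen with earlier results of these data known. Per the labels, total RNA was turned into libraries with NEB's NEBNext small RNA set and inserts of a microRNA's size were selected. Adapter trimming with cutadapt and alignment with Novoalign 2.07.11 are named in the submitters' processing notes. Which genome build, microRNA release and counting rule were used is not given in the sources used here. Deposited were a table of raw tag counts by the authors, all isoforms together, and a second table that holds a score: their normalized counts rounded to whole numbers, with column totals of 983286 to 991838, used as an alternative only (log2 of value + 1, limma 3.58.1).

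Of 2909 entries, 860 predicted ones were left out. Where a name had several hairpins (111 names), that with the highest total was used. Blanks were read as 0. edgeR 4.0.16 in R 4.3.3 (TMM, filterByExpr, 1 coefficient per group over 12 libraries, 8 residual degrees of freedom) gave quasi-likelihood tests, adjusted over 608 microRNAs by the Benjamini-Hochberg method and called at an adjusted p under 0.05. The steps were tested on simulated counts. Strand ratios had exact permutation tests. All 7 members were named, with the 3 nearest profiles to each guide and the 3 most abundant members of each list. The alternatives were DESeq2 1.42.0, other size factors, filters and entries, a replicate block and leaving out each library. Without molecular identifiers, counts are not independent molecules. Reads were not reprocessed, and no batch is given in the labels.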

Additional observations from a re-analysis of the deposited data

How the results depend on the processing

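The alternatives changed few member values beyond their error. With the replicate number as a block, calls over all microRNAs were 164 for SAHA in HGC-27 (248 without the block), 92 for SAHA in AGS (161) and 1 for the difference of the responses (11). miR-29b-1-5p in HGC-27 was then -2.85 (edgeR, adjusted p = 0.0582). Deviations of SAHA and DMSO libraries of the same number and line correlated by -0.32 to 0.07, so no shared effect was seen. Whether the numbers pair the libraries is not given in the labels. The difference of the responses had 44 calls with predicted entries, 27 with limma on the authors' normalized table and 31 with DESeq2, and AGS against HGC-27 under DMSO had 432 calls with predicted entries (271 without). The split of calls under plain library totals was 116 higher and 37 lower in AGS (91 and 70 with TMM) and 144 higher and 79 lower in HGC-27 (132 and 116).

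Leaving out 1 library at a time gave 163 to 210 calls for SAHA in HGC-27, 97 to 144 in AGS and 2 to 20 for the difference. The count moved by over 1.5 times without HGC-27 DMSO replicate 3 in HGC-27, without AGS DMSO replicate 1 or AGS SAHA replicates 1 or 2 in AGS. That of the difference did so on leaving out any of 7 libraries: it was 20 without AGS DMSO replicate 3, 7 without AGS SAHA replicate 1, 6 without AGS SAHA replicate 2, 5 without HGC-27 SAHA replicate 1, 7 without HGC-27 DMSO replicates 1 or 2, and 2 without HGC-27 DMSO replicate 3. Over the same omissions the shift of the strand ratio was 0.96 to 1.57 for miR-29a and 1.94 to 2.94 for miR-29b-1 (exact p of 0.01 to 0.075 and 0.01 to 0.02). Adjusting over all 183 hairpins, chosen after seeing the data, left their shifts of 1.24 and 2.53 short of the threshold, and a pseudocount of 5 gave 1.17 for miR-29b-1.

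Sign changes concerned values that were not called. For SAHA in HGC-27, no filter gave -0.021 for miR-29b-3p and -0.014 for miR-29b-2-5p. For SAHA in AGS, predicted entries gave -0.092 for miR-29a-3p and -0.070 for miR-29c-3p, while miR-29b-2-5p was 0.073 with plain totals and 0.31 with limma, and miR-29c-3p ran from -0.039 to 0.27 without 1 library. For the difference, miR-29a-3p was 0.013 with plain totals, 0.036 without a filter and 0.065 with limma, and ran from -0.25 to 0.0083 without 1 library; miR-29c-3p was 0.046, 0.086 and 0.15, and ran from -0.27 to 0.088; miR-29a-5p was -0.034 with DESeq2 size factors, -0.11 with predicted entries and -0.024 with the lowest-total hairpin, and ran from -0.39 to 0.48; miR-29b-1-5p ran from -0.45 to 1.31. Between the lines, miR-29c-5p under DMSO ran from -0.020 to 0.18, and miR-29b-1-5p under SAHA was 0.14 with limma and ran from -1.57 to 0.18. The share of miR-29c-3p among the guides in AGS SAHA was 1.27% in the authors' table (1.19% from counts), and plain totals put the summed guides at 2631 CPM in AGS DMSO and 4219 CPM in HGC-27 DMSO. The cause of these changes was not tested. In the fit of the 6 SAHA libraries, and of the 6 AGS libraries, miR-29a-5p and miR-29b-1-5p did not pass the filter and gave no value. Depth limits the 3 scarcest passengers most, with at most 50 counts in any library.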
